A study of Mus musculus with 4 samples.

Results

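Galectins are proteins that bind sugars ending in galactose, and the 5 genes described here are Lgals1, Lgals3, Lgals8 and Lgals9, which encode galectins, and Lgals3bp, which encodes a secreted glycoprotein bound by galectin-3. They were chosen by symbol as 5 of the 21705 genes listed, with earlier results of these data known. RNA of splenic T cells of the C57bl/6 strain was sequenced after a flow sort into CD4 and CD8 cells, on the day of an allogeneic transplant or later. The 4 groups, CD4 at transplant, CD4 after transplant, CD8 at transplant and CD8 after transplant, held 1 library each, made from a pool of 5 mice, so differences could not be set against replicates and no p-value is given. Titles call the cells at transplant Donor, while the titles of the later libraries say day 12 and their characteristics day 14. The labels give no further genotype, age or drug for any group, and they do not say whether recipient T cells were kept out of the later sorts. A value compared between the times sets libraries of different pools side by side and does not follow the same cells.

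Galectins lack a signal peptide, act inside cells and also leave them by an unconventional route, and outside the cell they crosslink glycoproteins on the surface. The strength of that binding depends on how far the N-glycans and O-glycans of the target are branched and extended with N-acetyllactosamine, and on whether sialic acid caps the galactose. In T cells, galectins are known for dampening receptor signalling and for promoting the death of activated cells, and activated T cells make galectins themselves.

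Depth ran from 9873851 to 23633544 estimated reads, lowest in the CD8 library after transplant. Values are the deposited normalised signal, in which 1 read stood for 0.664 to 1.41 units. Ratios of plain values carry 95% exact counting intervals, for counting error alone. The constant 14.7 was added before taking log2 ratios, and higher or lower means a difference of at least 2-fold on that scale unless a ratio is given. All 5 genes were among the 9933 with a mean signal of at least 73.3, the genes counted below. Cd4 and Cd8a followed the labels of the fractions, with Cd4 at 15134 and 17092 in the CD4 libraries against at most 94.5 in the CD8 libraries. Cd8a was at 17999 and 21107 in the CD8 libraries against at most 295 in the CD4 libraries. Innate lymphoid cells are given as the source in the labels, but Cd3e, part of the T cell receptor, stood between 4272 and 5330.2 in all 4 libraries.

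After transplant, Lgals1 and Lgals3 were several-fold higher in both CD4 and CD8 libraries, Lgals3bp had smaller ratios of 2.04 and 1.66, and Lgals8 and Lgals9 had ratios slightly under 1. Lgals1 had an 8.57-fold and an 11.9-fold higher level after transplant in CD4 and CD8, and Lgals3 a 10.7-fold and a 42.4-fold higher level. In CD4, 3 of the 5 genes were at least 2-fold higher and 0 lower, where 12.1% of the genes compared were higher and 10.8% lower, or 14.2% and 8.40% with equal library totals. In CD8, 2 of the 5 were at least 2-fold higher and 0 lower, where 15.0% were higher and 11.0% lower. The CD8 shares were 16.6% and 9.77% with equal library totals, and 13.7% and 12.6% with trimmed mean of M-values. Lgals1 and Lgals3 were the 2 genes higher in both cell types, as were 10.5% of the genes compared. The median log2 ratio of the 5 was 1.03 in CD4 and 0.73 in CD8, and that of all 9933 genes was -0.08 and 0.02. Because the 5 genes were chosen with earlier results of these data known, setting them beside all genes is a description and no test.

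**Figure D1:**
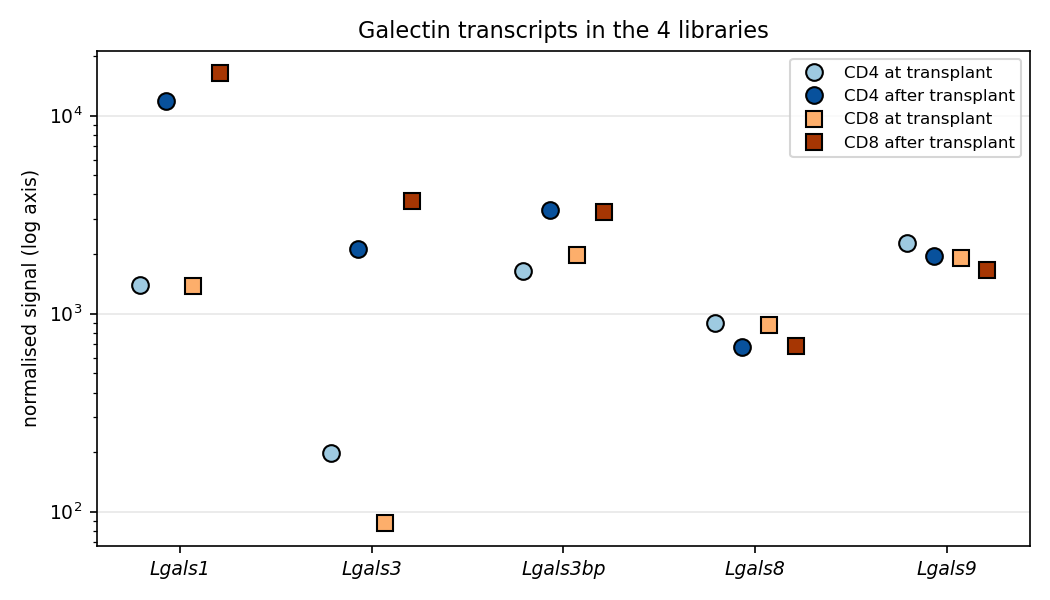
Normalised signal (log axis) of the 5 genes in each of the 4 libraries, with circles for CD4, squares for CD8, pale symbols at transplant and dark symbols after it. Lgals1 and Lgals3 separate by time in both fractions, from 1379 and 1392 to 11931 and 16381 for Lgals1, whereas the 4 values of Lgals8 and Lgals9 lie close together.

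Lgals1 (Entrez 16852) encodes galectin-1, a dimer of small subunits with a sugar-binding domain each, which binds glycans of CD45, CD43 and CD7 on T cells. Its level was 1392 in the CD4 library at transplant, 11931 in CD4 after transplant, 1379 in CD8 at transplant and 16381 in CD8 after it. Both libraries at transplant were low and nearly equal, and both later libraries were high, the CD8 library above the CD4 library. The ratio after against at transplant was 8.57 in CD4 (8.18 to 8.98, from 13610 and 2097 reads) and 11.9 in CD8 (11.3 to 12.5, from 11614 and 1670 reads). On the log2 scale the ratios were 3.09 and 3.56, at rank 245 and 234 from the top of 9933 genes. The CD8 to CD4 ratio of these ratios was 1.39 (counting interval 1.29 to 1.49), a log2 difference of 0.47 that became 0.32 with median-of-ratios scaling. RefSeq annotates a pseudogene, Lgals1-ps1, which was not analysed here, and whether reads were shared with it was not tested.

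Lgals3 (Entrez 16854) encodes galectin-3, which joins a sugar-binding domain to a proline- and glycine-rich tail through which it forms oligomers. The protein is also known as Mac-2, a surface antigen of macrophages. Its level was 198 in CD4 at transplant, 2119.7 in CD4 after it, 87.5 in CD8 at transplant and 3708 in CD8 after it. The order of the fractions was therefore opposite at the 2 times, with CD4 above CD8 at transplant and CD8 above CD4 after it. The ratio after against at transplant was 10.7 in CD4 (9.49 to 12.1, from 2418 and 298 reads) and 42.4 in CD8 (34.9 to 51.9, from 2629 and 106 reads). The log2 ratio of 5.19 in CD8 was at rank 19 of 9933 genes and that of 3.33 in CD4 at rank 187. The CD8 ratio was 3.95 times the CD4 ratio (3.13 to 5.02), a log2 difference of 1.86, and 2.06% of the genes compared had a difference at least as large in either direction.

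The sequences before the annotated starts of Lgals3, Lgals3bp and Lgals9 are shown, as the genes with the highest, an intermediate and the most nearly level ratio. Lgals8, which had the lowest ratios of the 5 genes, is not printed. RefSeq's table for GRCm38.p6 matched 4 of the 5 genes, Lgals1 being the gene without an entry, and the 250 bases before each start are printed 5′ to 3′ on the gene's own strand. Capitals mark matches, on either strand, to 7 motifs: GCGTG (the core bound by the aryl hydrocarbon receptor, AhR, which the series title names), CACGTG (an E-box of Bhlhe40 and Myc), TGANTCA (AP-1), TTCNNNGAA (STAT factors), GAAA repeated after 2 free bases (the interferon-stimulated response element), GGGCGG (the GC box of Sp1) and TATAAA (the TATA box).
Lgals3, chr14:47373610-47373859, plus strand: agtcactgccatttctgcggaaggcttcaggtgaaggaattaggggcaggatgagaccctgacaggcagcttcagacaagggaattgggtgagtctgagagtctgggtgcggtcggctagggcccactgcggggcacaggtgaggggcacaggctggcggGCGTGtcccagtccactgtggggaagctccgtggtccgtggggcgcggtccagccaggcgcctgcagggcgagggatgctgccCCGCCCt
Lgals3bp, chr11:118401960-118402209, minus strand: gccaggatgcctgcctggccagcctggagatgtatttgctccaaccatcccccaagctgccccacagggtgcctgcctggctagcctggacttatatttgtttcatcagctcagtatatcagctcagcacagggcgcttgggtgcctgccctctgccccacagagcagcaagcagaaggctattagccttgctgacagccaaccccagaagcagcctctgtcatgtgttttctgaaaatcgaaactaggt
Lgals9, chr11:78984925-78985174, minus strand: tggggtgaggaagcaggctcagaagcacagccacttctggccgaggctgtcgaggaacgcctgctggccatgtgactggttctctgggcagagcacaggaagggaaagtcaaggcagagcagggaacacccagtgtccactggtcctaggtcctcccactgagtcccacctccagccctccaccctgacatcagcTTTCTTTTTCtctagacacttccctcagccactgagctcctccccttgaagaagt
Lgals3 held 1 GCGTG, 90 to 86 bases before the start, and 1 GC box on the opposite strand at bases 7 to 2. Lgals9 held 1 interferon-stimulated response element on the opposite strand, 55 to 46 bases before the start. The windows of Lgals3bp and Lgals8 held no match to these letters. No matches overlapped. Of 32851 promoters cut to the same length, 28.2% held the AhR core, 32.7% the GC box and 2.98% the interferon element, and 6.02, 6.75, 7.02 and 12.4% held the E-box, AP-1, STAT and TATA motifs. A match describes letters in a window and is no measured binding site.

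Lgals3bp (Entrez 19039) encodes a secreted glycoprotein with a scavenger receptor domain, which binds galectin-3 and is induced by interferons. Its level was 1640.1 in CD4 at transplant, 3353 in CD4 after it, 1975 in CD8 at transplant and 3282 in CD8 after it. The later libraries were both higher and close to each other, and the libraries at transplant differed a little, with CD8 above CD4. The ratio after against at transplant was 2.04 in CD4 (1.94 to 2.15) and 1.66 in CD8 (1.57 to 1.76). The CD4 interval lies on both sides of 2-fold and the CD8 interval wholly under it, so 2 genes rather than 3 passed 2-fold in CD4 when the whole counting interval had to lie beyond it. The CD8 to CD4 ratio of the ratios was 0.813 (0.753 to 0.878), with 35.3% of genes differing at least as far.

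Lgals8 and Lgals9 encode tandem-repeat galectins, which carry a pair of different sugar-binding domains on a single chain. Galectin-8 binds integrins and, inside human cells, marks damaged vesicles for autophagy, and galectin-9 is a ligand of the inhibitory receptor Tim-3. Lgals8 (Entrez 56048) was at 897 in CD4 at transplant, 676 in CD4 after it, 881 in CD8 at transplant and 683 in CD8 after it. The fractions were alike at each time, and both were lower after transplant, with ratios of 0.754 (0.689 to 0.824) in CD4 and 0.776 (0.695 to 0.864) in CD8. Lgals9 (Entrez 16859) was at 2272 in CD4 at transplant, 1954 in CD4 after it, 1903 in CD8 at transplant and 1656 in CD8 after it. CD4 was above CD8 at each time, and the ratios after against at transplant were 0.860 (0.815 to 0.908) in CD4 and 0.870 (0.810 to 0.934) in CD8. For both genes the CD8 to CD4 ratio of these ratios had a counting interval on both sides of 1, at 1.03 (0.893 to 1.19) for Lgals8 and 1.01 (0.925 to 1.11) for Lgals9. On the log2 scale Lgals8 was at -0.40 and -0.36 and Lgals9 at -0.22 and -0.20, where another scaling moved a ratio by up to 0.15 in CD4 and 0.09 in CD8. Both genes kept their sign under the 3 other scalings tried.

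**Figure D2:**
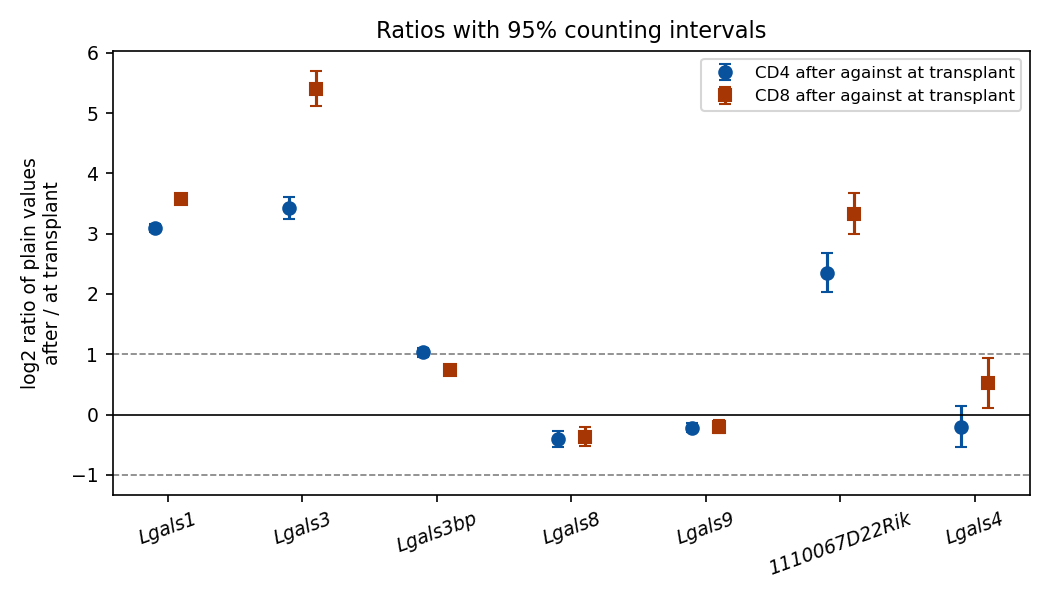
Log2 ratio of the plain values after against at transplant for the 5 genes, the galectin-related 1110067D22Rik and Lgals4, with circles for CD4, squares for CD8 and bars for 95% counting intervals. Dashed lines mark 2-fold. Lgals1, Lgals3 and 1110067D22Rik lie wholly beyond 2-fold in both fractions, and Lgals8 and Lgals9 between the lines.

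Between the fractions, Lgals1, Lgals3, Lgals3bp and Lgals8 differed by smaller factors than between the times. Lgals9 differed by slightly larger factors between the fractions in the deposited signal, but this depended on the scaling. With median of ratios its log2 ratio of CD4 against CD8 was 0.07 at transplant and 0.20 after it. Its log2 ratio after against at transplant was then -0.15 in CD4 and -0.28 in CD8. At transplant 1 of the 5, Lgals3, was at least 2-fold higher in CD4 than in CD8, where 4.92% of genes were higher and 1.48% lower, and 0 were lower. Its ratio was 2.26 with an interval on both sides of 2-fold (1.81 to 2.85, from 298 and 106 reads), and its log2 ratio of 1.06 fell under 1 with each of the 3 other scalings and with a larger pseudocount. At transplant 16 of 19 macrophage genes and 12 of 14 neutrophil genes, from lists given below, were also higher in CD4, and 0 were lower. Those lists hold genes with a mean signal of at least 14.7, while the 4.92% is over the 9933 genes. After transplant 0 genes of either list were higher in CD4, and 1 macrophage gene was lower. The part of such cells in the Lgals3 difference was not tested. After transplant 0 of the 5 passed 2-fold in either direction, where 2.42% of genes were higher in CD4 and 0.956% lower. Lgals3 was then 1.75-fold higher in CD8 than in CD4 (1.65 to 1.85) and Lgals1 1.37-fold higher (1.34 to 1.41). Lgals9 was 1.19-fold higher in CD4 at transplant (1.13 to 1.26) and 1.18-fold higher after it (1.099 to 1.27). Lgals8 had ratios with an interval on both sides of 1 at each time, 1.02 (0.9396 to 1.11) and 0.990 (0.883 to 1.11), as had Lgals1 at transplant, 1.01 (0.946 to 1.08).

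Levels of different genes were compared per kilobase of GENCODE M21 transcripts with a RefSeq accession, as a range from the longest to the shortest transcript where there were several. In the CD4 library at transplant the order was Lgals1 at 1741 units per kilobase, Lgals9 at 1432 to 1494, Lgals3bp at 704, Lgals8 at 321 to 782 and Lgals3 at 139 to 152. Lgals8 and Lgals3bp could not be ordered there, since the range of Lgals8 spans the value of Lgals3bp. In the CD8 library at transplant Lgals1 was at 1724, Lgals9 at 1199.8 to 1252, Lgals3bp at 847, Lgals8 at 315 to 767 and Lgals3 at 61.7 to 67.4. There the range of Lgals8 lay wholly below Lgals3bp. After transplant Lgals1 stood apart, at 14913 in CD4 and 20476 in CD8. Lgals3 moved from the last place to the second, at 1494 to 1633 units per kilobase in CD4 and 2613 to 2857 in CD8. In CD4 after transplant Lgals3bp at 1439 and Lgals9 at 1232 to 1286 were close below it, and in CD8 they stood at 1409 and 1044 to 1089. These lengths come from a later build than the one named in the submitters' processing notes.

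**Figure D3:**
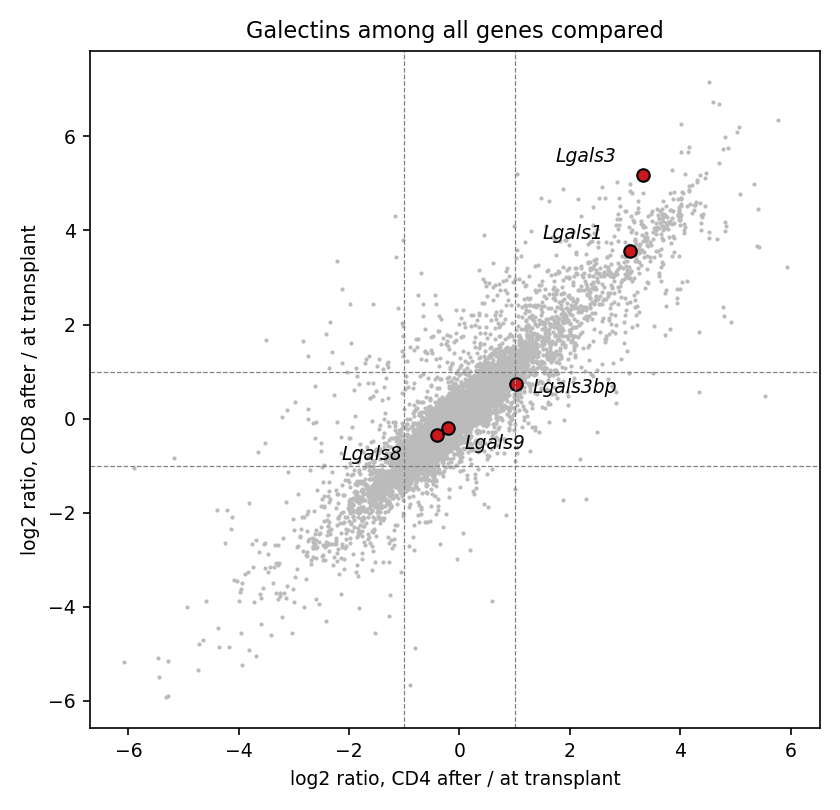
Log2 ratio after against at transplant in CD8 (vertical) against that in CD4 (horizontal) for 9933 genes (grey), with the 5 genes in red and dashed lines at 2-fold. Lgals1 (3.09, 3.56) and Lgals3 (3.33, 5.19) lie in the upper right, Lgals3bp (1.03, 0.73) at the edge of 2-fold, and Lgals8 and Lgals9 among the bulk.

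Of 8 symbols of other galectin family genes 6 were in the table, and 3 had a mean signal of at least 14.7. The Lgalsl gene, listed under its older symbol 1110067D22Rik, encodes a galectin-related protein that is thought not to bind lactose. It was at 67.1 in CD4 at transplant, 341 in CD4 after it, 71.0 in CD8 at transplant and 712 in CD8 after it. These levels were low at transplant and high after it in both fractions, with ratios of 5.08 (4.08 to 6.39) and 10.03 (7.96 to 12.8). Lgals4, a galectin of the gut epithelium, was at 125, 109, 90.02 and 129.8 (CD4 first, then CD8, each at transplant before after) and was within 2-fold throughout. Lgals7, a galectin of keratinocytes, had 10 reads in CD4 at transplant and 60 after it, and 0 in both CD8 libraries. Lgals2 and Lgals12 had at most 1 read in any library, and Grifin, a galectin-related lens protein, had a level of at most 9.91.

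Genes with the pattern most like each galectin were sought among 8945 other genes with a mean signal of at least 147, by the Euclidean distance between their 4 log2 values centred on the gene's mean. Nearest to Lgals1 were Ect2, an activator of the small GTPases of cytokinesis (distance 0.13), and the kinetochore genes Cenpk (0.16) and Spc25 (0.19). Ect2, for instance, was at 114 in CD4 at transplant, 1208 in CD4 after it, 115 in CD8 at transplant and 1605 in CD8 after it. Nearest to Lgals3 were Mt1, which encodes a metallothionein (0.23), Lamc1, a laminin chain (0.42), and Ube2c, a ubiquitin-conjugating enzyme of mitosis (0.44). These distances were the largest among the 5 genes. Nearest to Lgals3bp were Sms, which encodes spermine synthase (0.05), Tmed3, a protein of vesicle transport (0.05), and Atg7, an autophagy enzyme (0.07). Nearest to Lgals8 were Galnt12, Rpusd4 and Cdkn2d, and nearest to Lgals9 Gpatch8, Zfp445 and Dimt1, all at distances between 0.01 and 0.03. With 4 libraries many genes share a pattern, and these distances carry no test. In RefSeq's annotation the nearest protein-coding gene to Lgals3 is Dlgap5, and a pseudogene that was not analysed here lies nearer. Dlgap5, a mitotic spindle gene, was at 129 and 1573 in the CD4 libraries and at 118 and 1788 in the CD8 libraries. Whether reads of the neighbours were counted for each other was not tested.

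The glycoproteins that galectins bind on T cells were listed as 18 counter-receptors, chosen with earlier results of these data known, and all 18 were measured, with a mean signal of at least 14.7. In CD4, 7 of 18 were at least 2-fold higher after transplant and 1 was lower, and in CD8 8 were higher and 0 lower. Among 11627 genes with that mean signal, 13.7% were higher and 11.7% lower in CD4, and 17.7% and 10.9% in CD8. The median log2 ratio of the list was 0.59 in CD4 and 0.77 in CD8, against -0.06 and 0.07 over those genes. The genes with the highest ratios were inhibitory receptors. Havcr2, which encodes Tim-3, a receptor of galectin-9, was at 95.6 in CD4 at transplant, 1773 in CD4 after it, 61.9 in CD8 at transplant and 3858 in CD8 after it. Its ratio was 18.5 in CD4 (15.7 to 22.1) and 62.3 in CD8 (49.5 to 79.4), while the ratio of Lgals9 was under 1 in both. Lag3, which encodes an inhibitory receptor reported to bind galectin-3, had log2 ratios of 4.59 and 6.73, and Pdcd1, the gene of PD-1, of 4.52 and 7.17. Receptors of galectin-1 on the same list differed among themselves. Itgb1, which encodes beta-1 integrin, was higher, at a log2 ratio of 2.44 in CD4 and 1.91 in CD8. Ptprc, which encodes CD45, was within 2-fold at -0.34 and -0.37, as were Spn, the gene of CD43, at 0.37 and 0.63, and Cd7 at 0.17 and 0.12. Cd44, an adhesion receptor bound by galectin-8 and galectin-9, had 0.97 in CD4 and 1.19 in CD8, and Cd27, a costimulatory receptor, was the lower gene in CD4 (-1.07).

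**Figure D4:**
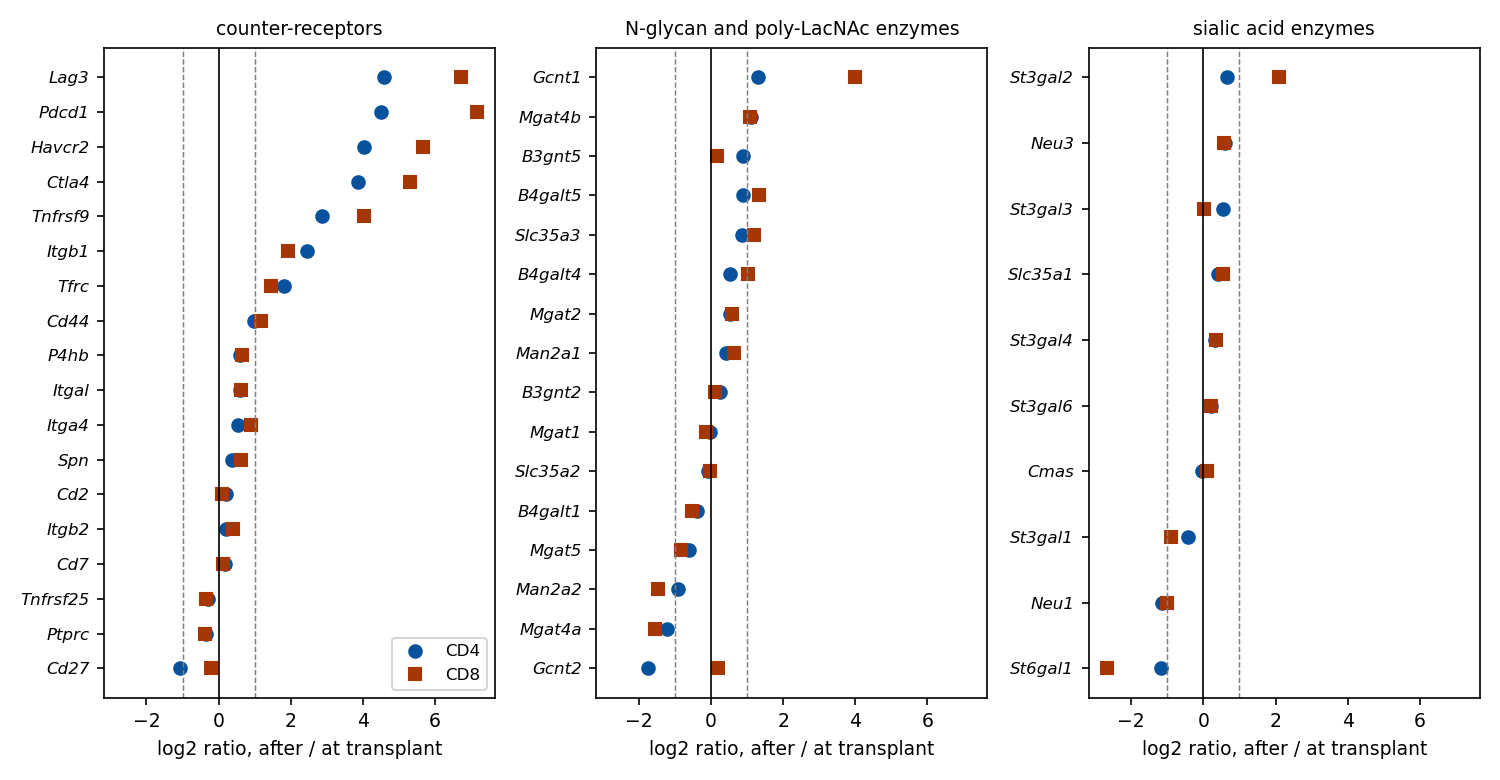
Log2 ratio after against at transplant of the measured counter-receptors, N-glycan and poly-N-acetyllactosamine enzymes and sialic acid enzymes, with circles for CD4, squares for CD8 and dashed lines at 2-fold. Lag3, Pdcd1 and Havcr2 lie above 4 in both fractions, Gcnt1 is at 1.30 and 3.99, and St6gal1 at -1.18 and -2.68.

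Of 16 measured genes that branch glycans or extend them with N-acetyllactosamine, mostly on N-glycans, 2 were higher and 2 lower in CD4 after transplant, and 5 were higher and 2 lower in CD8. Over the 11627 genes the shares were 13.7% higher and 11.7% lower in CD4, and 17.7% and 10.9% in CD8, so the CD4 counts lie near the share over all genes. The list medians were 0.33 and 0.18, and the counts of higher genes became 5 in CD4 with equal library totals and 3 in CD8 with the other scalings. Gcnt1, which encodes the enzyme that builds core 2 branches on O-glycans, had the highest ratio. It was at 86.3 in CD4 at transplant, 234 in CD4 after it, 23.1 in CD8 at transplant and 584 in CD8 after it. The ratios were 2.71 (2.19 to 3.37) and 25.3 (17.2 to 38.5), so the later CD8 library was the highest and the earlier CD8 library the lowest. Mgat4b, a branching enzyme, was higher in both fractions (1.12 and 1.07), whereas Mgat4a, its relative, was lower in both (-1.23 and -1.55). B4galt5, a galactosyltransferase, had log2 ratios of 0.90 and 1.33, Slc35a3, a transporter of sugar nucleotides, 0.87 and 1.18, Gcnt2, which branches poly-N-acetyllactosamine, -1.75 and 0.20, and Man2a2, a mannosidase of N-glycan processing, -0.91 and -1.47. Mgat5, the enzyme whose branches are the preferred N-glycan ligands of galectin-3, was within 2-fold in both fractions, at -0.62 and -0.84.

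Sialic acid in the linkage made by St6gal1 blocks the binding of galectin-1, and the St6gal1 transcript was lower after transplant in both fractions. Its level was 4545 in CD4 at transplant, 1997 in CD4 after it, 3078 in CD8 at transplant and 467 in CD8 after it. It was 2.28-fold lower in CD4 (2.17 to 2.39) and 6.59-fold lower in CD8 (5.89 to 7.40), and the later CD8 library had the lowest level by a wide margin. Of 10 genes that add, remove or supply sialic acid, 2 were lower and 0 higher in CD4, and 2 were lower and 1 higher in CD8, with list medians of 0.27 and 0.16. Over the 11627 genes 11.7% and 10.9% were lower and 13.7% and 17.7% higher in CD4 and CD8, and with 10 genes the counts lie near those shares. The second lower gene was Neu1, a lysosomal sialidase (-1.14 and -1.0025), which came within 2-fold in 1 of the scalings, equal library totals, in both fractions. The higher gene in CD8 was St3gal2, a sialyltransferase (0.66 in CD4 and 2.11 in CD8).

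Inside the cell, galectin-3 and galectin-8 mark damaged vesicles, and of 12 measured partners of that response 2 were higher and 1 lower after transplant in each fraction. These counts lie near the shares over the 11627 genes, 13.7% higher and 11.7% lower in CD4 and 17.7% and 10.9% in CD8. The medians were -0.16 and -0.08. Optn, an autophagy receptor, was at log2 ratios of 3.18 and 2.37, Trim16, a ubiquitin ligase that binds galectin-3 in human cells, at 2.17 and 1.21, and Calcoco1, another autophagy receptor, at -1.22 and -1.41. Calcoco2, the receptor that galectin-8 recruits in human cells, was at 0 in all 4 libraries.

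Since Lgals3bp and Lgals9 are induced by interferons, genes of the interferon responses are set beside them. Of 25 genes of the type I response 3 were higher and 3 lower in CD4 and 3 were higher and 5 lower in CD8, with medians of -0.22 and -0.50. Over the 11627 genes 13.7% were higher and 11.7% lower in CD4, near the counts of the list, and 17.7% and 10.9% in CD8. Mx1, an antiviral GTPase (2.35 and 1.25), Ifih1, an RNA sensor (1.73 and 1.61), and Isg20, an exonuclease (1.19 and 1.01), were the higher genes in both fractions, and Oas2 (-2.54 and -2.45), Usp18 (-1.24 and -1.89) and Oasl1 (-1.61 and -1.85) were lower in both. In CD8 the counts became 2 higher with trimmed mean of M-values or median of ratios, and 4 lower with equal library totals. Of 20 genes of the interferon gamma response 6 were higher and 1 lower in CD4 and 4 were higher and 0 lower in CD8, with medians of 0.67 and 0.38. Cxcl10, a chemokine, had log2 ratios of 2.85 and 1.9999, Gbp3, a guanylate-binding protein, 2.66 and 1.75, and Irf8, a transcription factor that macrophages, dendritic cells and activated T cells express, 1.37 and 2.73. Ciita, the activator of MHC class II genes, was the lower gene in CD4 (-1.83). Lgals3bp lay above the type I median in both fractions, and Lgals9 lay at the type I median in CD4 and above it in CD8. Against the interferon gamma medians Lgals3bp lay above in both fractions and Lgals9 below in both.

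Macrophages, dendritic cells, neutrophils and stromal cells express Lgals1, Lgals3, Lgals3bp or Lgals9 as well, and transcripts of such cells were present. The macrophage and monocyte list had 19 measured genes, with 10 lower and 1 higher in CD4 after transplant, and with 13 higher and 0 lower in CD8. Over the 11627 genes 13.7% were higher and 11.7% lower in CD4, and 17.7% and 10.9% in CD8. The summed signal of that list was 12662 in CD4 at transplant, 8758 in CD4 after it, 4004 in CD8 at transplant and 7615 in CD8 after it. In CD4, Lgals3 was thus 10.7-fold higher where the summed macrophage signal was 0.692 times as high, and in CD8 it was 42.4-fold higher where the sum was 1.90 times as high. The median log2 ratio of the list was -1.12 in CD4 and 1.31 in CD8. Ctss, a lysosomal protease that T cells may share, made up 2651 of the CD8 sum at transplant and 1799.7 after it. C1qa, C1qb and C1qc, genes of the complement component C1q that macrophages make, had levels of 9.08, 6.61 and 3.30 in the earlier CD8 library and of 83.2, 100.1 and 105.8 in the later one. C1qc had the highest log2 ratio in CD8 of the 19 measured genes, whose median was 1.31. Its plain ratio, 32.0 from 4 and 75 reads, had an interval of 11.999 to 120.6, which spans the ratio of Lgals3. In CD4, C1qa, C1qb and C1qc were at 404, 362 and 381 at transplant and at 67.5, 112 and 75.4 after it, lower where Lgals3 was higher. The ratio of Lgals3 to the sum was 0.0156 and 0.242 in CD4 at and after transplant, and 0.0219 and 0.487 in CD8. The most abundant genes of the list were Ctss (3628, 2019, 2651 and 1799.7 in the same order of libraries), Lyz2, a lysozyme (3504, 2685, 671 and 2464), and Ccr2, a chemokine receptor also found on effector T cells (492.5, 2769.8, 348 and 2031). Of the macrophage genes, Cd14 and Marco were at 0 in CD8 at transplant and the others were above 0 in all 4 libraries.

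Neutrophil transcripts were mostly higher after transplant in CD8 and mixed in CD4. Over the 11627 genes 13.7% were higher and 11.7% lower in CD4, and 17.7% and 10.9% in CD8. Of 14 measured neutrophil genes 5 were higher and 2 lower in CD4, and 11 were higher and 0 lower in CD8. The list medians were 0.76 and 2.89. In CD4 the 5 higher genes were Ctsg, Elane, Prtn3, Mpo and Ngp, and the 2 lower were Csf3r and Cxcr2. Ctsg, which had the highest log2 ratio of the list in CD4, was at 23.9 and 188 in CD4 at and after transplant. In CD8 it was at 9.91 and 154, a steeper change than that of the sum in each fraction. The summed signal was 20084 in CD4 at transplant, 33223 in CD4 after it, 3715 in CD8 at transplant and 28609 in CD8 after it, ratios of 1.65 and 7.70, below those of Lgals3 in each fraction. The ratio of Lgals3 to that sum was 0.00985 and 0.0638 in CD4 and 0.0236 and 0.130 in CD8. S100a9, S100a8 and Ngp, proteins of neutrophil granules and cytosol, led the list, with S100a9 at 6741, 11137, 1265 and 9220.0. The part of these cells in the levels of Lgals3 and Lgals1 was not tested, and in bulk libraries more cells of a type and more RNA per cell cannot be told apart.

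**Figure D5:**
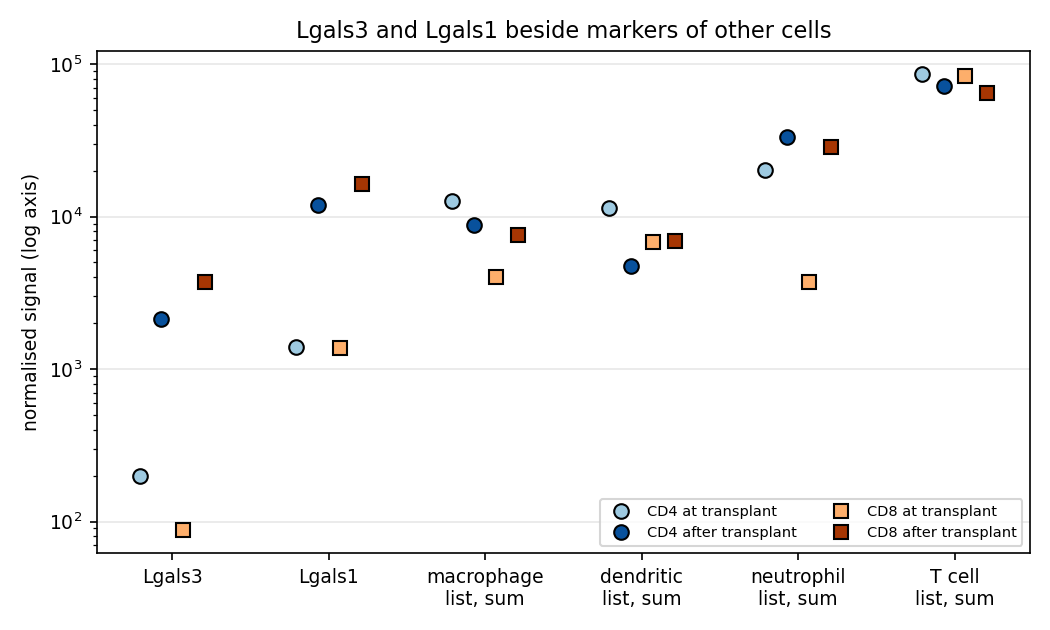
Normalised signal (log axis) of Lgals3 and Lgals1 and the summed signal of the macrophage, dendritic cell, neutrophil and T cell lists in each library, with circles for CD4, squares for CD8, pale symbols at transplant and dark symbols after it. In CD4 the macrophage and dendritic sums are lower after transplant while Lgals3 and Lgals1 are higher, and in CD8 the neutrophil sum is 7.70 times as high.

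The shares over the 11627 genes were 13.7% higher and 11.7% lower in CD4, and 17.7% and 10.9% in CD8. Beside these shares the other lists of cell types moved as follows. The dendritic cell list, led by Cd74, H2-Aa and H2-Ab1, had 6 of 12 genes lower and 1 higher in CD4 and 5 higher and 1 lower in CD8, with sums 0.412 and 1.02 times as high after transplant. The NK cell list, led by Nkg7, Gzma and Eomes, which T cells also express, had 8 of 12 lower and 3 higher in CD4 and 2 lower and 4 higher in CD8, while its sum was 2.09 and 2.54 times as high. The list of other innate lymphoid cells, led by Il7r, Gata3 and Il1rl1, had 3 of 8 higher and 2 lower in CD4 and 3 higher and 1 lower in CD8. Its sum was nevertheless lower after transplant, 0.610 times as high in CD4 and 0.316 times in CD8. Of 7 mast cell, basophil and eosinophil genes, led by Prss34, Ccr3 and Mcpt8, 2 were higher and 1 lower in CD4 and 6 higher and 0 lower in CD8, with sums 1.04 and 11.7 times as high. Of 9 erythroid and platelet genes, led by Tfrc, Hbb-b1 and Slc4a1, 6 were higher in CD4 and 7 in CD8, and 0 were lower. The B and plasma cell list, led by Igj, Cd79b and Cd79a, and the stromal and endothelial list, led by Pecam1, Stab2 and Col1a1, had 2 measured genes each, with 0 higher in either fraction, and with 1 and 2 lower in CD4 and 1 and 0 lower in CD8. T cell genes, led by Thy1, Lck and Cd3g, had 0 of 11 higher, 2 lower in CD4 and 1 lower in CD8, and their sum was 0.830 and 0.774 times as high after transplant. With each of the 3 other scalings 1 T cell gene was lower in CD4.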

How the data were processed

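RNA of sorted splenic CD4 and CD8 T cells was measured in 4 libraries, each from 5 pooled mice, made with a TruSeq mRNA kit per the labels' protocols. Groups were taken from the titles. The deposited signal holds estimated reads, scaled by the authors to an upper quartile near 1000 over the genes above 0 of each library, as the values show. The submitters' processing notes name RSEM 1.1.13, SAMtools 1.2 and build mm9. Aligner, annotation, strand setting and scaling step are not given in the sources used here. Estimated reads were recovered by dividing by the value of 1 read in each library. Of the values above 0, 86.4 to 87.6% then lay within 0.1 of a whole number. The counting intervals treat the rounded reads as counts, and no other count model was used. The reads can be shared between genes with similar sequence by the estimation.

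Log2 ratios were computed on the deposited signal plus 14.7 (1 ppm of the average total of a library). Genes averaging 5 ppm (73.3) or more were compared, and members of gene lists with at least 1 ppm (14.7) were called measured. Counting intervals are exact conditional binomial intervals on rounded reads, and those of a ratio of ratios are exact conditional intervals of an odds ratio (Python 3.11.15, scipy 1.17.1). With 1 library per group no test between groups was possible. The 5 genes and the 17 gene lists were chosen with earlier results of these data known. Named genes were the 5 members, up to 3 list genes each way with the largest ratio and a mean of at least 5 ppm, 8 counter-receptor and enzyme genes fixed by name, the 3 most abundant genes of each list of other cells and the 3 genes most like each member, and further genes named were chosen after their values were seen. Alternatives were 3 other scalings (totals made equal, median of ratios, trimmed mean of M-values), pseudocounts 0.25 and 4 times as large, other filters and a call on the whole counting interval. The calculations were tested on simulated data. The 2 columns without a header held no values.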

Additional observations from a re-analysis of the deposited data

How the results depend on the processing

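Each value rests on 1 library per group, so the spread between animals is unknown. The log2 ratios of the 5 genes in the 4 comparisons took 100 values under 3 other scalings and 2 other pseudocounts, of which 75 stayed within the counting interval, 25 left it and 0 changed the sign of a call. Lgals1 ranged from 3.05 to 3.23 in CD4 and from 3.47 to 3.65 in CD8, Lgals3 from 3.09 to 3.47 and from 4.69 to 5.35, and Lgals3bp from 1.01 to 1.17 and from 0.64 to 0.82. The median log2 ratio of all genes in CD4 after against at transplant was -0.08, and 0.07 with equal library totals. The largest shift of such a median came from median-of-ratios scaling in CD4 against CD8 at transplant, from 0.14 to -0.04, under which Lgals1 and Lgals8 became -0.17 and -0.16 there. The 1 gene at least 2-fold higher in CD4 at transplant, Lgals3, became 0 genes under the 3 scalings, under the larger pseudocount and when the whole counting interval had to pass 2-fold. The difference of the CD8 and CD4 log2 ratios became 0.34 and 0.32 for Lgals1, -0.43 and -0.44 for Lgals3bp and -0.11 and -0.13 for Lgals9 under trimmed mean of M-values and median of ratios, against 0.47, -0.30 and 0.02 as reported. These scalings of the difference were chosen after seeing the data. For Lgals3 it became 1.60 with the larger pseudocount. Genes beyond 2-fold numbered 2281, 2585, 636 and 335 in the 4 comparisons (CD4 and CD8 after against at, then CD4 against CD8 at and after transplant). With a mean of at least 20 ppm they became 1449, 1676, 280 and 170 because fewer genes were tested, and without a filter the last 2 became 1102 and 563 because more were. With the largest absolute difference in place of the Euclidean distance, 13 of the 15 most similar genes were shared. No paired analysis was possible because each group held 1 library.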
